A study of Mus musculus with 24 samples.

Results

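High fat feeding was compared with chow in livers whose hepatocytes lack both JNK1 and JNK2. The comparison covered 6 of the 24 libraries of the series and every locus of its expression table, 31027 in all, of which 10562 averaged 1 FPKM or more over the 24 libraries and were tested. JNK1 and JNK2, the products of Mapk8 and Mapk9, are stress-activated protein kinases that phosphorylate c-Jun and are switched on in liver by inflammatory cytokines and saturated fatty acids. A liver under prolonged high fat feeding is known to store triglyceride in lipid droplets, to oxidise fatty acids under the nuclear receptor PPARα, and to gather lipid-laden macrophages.

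The high fat Jnk1Jnk2 group and the chow Jnk1Jnk2 group (n = 3 libraries each) were C57BL/6J mice with floxed alleles of both kinases and an Alb-Cre transgene (Cre recombinase under the albumin promoter, active in hepatocytes), fed for 16 weeks. The high fat control and chow control groups (n = 3 each) carried Alb-Cre without floxed alleles and had the same diets for the same time, so Cre was present in all 4 groups. Non-parenchymal cells of the liver keep both genes. For a few genes, groups of the series whose hepatocytes lack JNK1 alone or JNK2 alone (n = 3 each) are also cited. Whole liver RNA was sequenced, so fewer cells of a type and less RNA per cell cannot be told apart, and since no label ties a replicate to a mouse of its own, the spread behind each p-value could be technical. The labels give no age, sex or hour of collection.

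Mapk8 was read at 1.03, 0.845 and 1.49 FPKM (fragments per kilobase of transcript, scaled to the mapped fragments) in the high fat Jnk1Jnk2 livers and at 1.99, 1.90 and 2.47 FPKM in the chow Jnk1Jnk2 livers. Control livers gave 4.12, 4.56 and 4.19 FPKM on high fat and 5.02, 5.77 and 4.76 FPKM on chow. Mapk9 was at 4.81, 4.33 and 4.73 FPKM in high fat Jnk1Jnk2 livers and 6.61, 6.04 and 6.46 FPKM in chow Jnk1Jnk2 livers, with 11.8, 10.3 and 10.9 FPKM in high fat control livers and 9.83, 9.19 and 10.8 FPKM in chow control livers. Every Jnk1Jnk2 library was below every control library for both kinases. The locus value counts the whole gene and not the floxed exon alone.

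The 3 high fat Jnk1Jnk2 libraries stood apart from the other 21 by transcript length. Their FPKM summed to 849038, 873399 and 852069, against 664093 to 702973 in the chow Jnk1Jnk2 libraries, and across loci the deviation of log2(FPKM + 1) from the mean of all libraries fell with transcript length (Spearman -0.60 to -0.66, against 0.13 to 0.42 in chow Jnk1Jnk2 and -0.25 to 0.42 over the other 21). The median diet change was 0.62 on the log2 scale in the shortest of 20 bins of loci ordered by length and -0.61 in the longest, against 0.11 and 0.03 in control livers. Within the high fat group, replicate 3 also had the lowest relative depth, 0.3 of the deepest library against 0.623 and 0.723 for replicates 1 and 2, and 5 skeletal muscle genes (Acta1, Myh1, Ckm, Mylpf and Tnnt3) summed to 495 FPKM in it, against 1.39 and 1.65 FPKM in the other high fat Jnk1Jnk2 libraries, 0.172 to 0.666 FPKM in chow Jnk1Jnk2 and 0.0 to 1.32 FPKM in the control libraries. Replicate 1 held the lowest value of the 3 for all 14 tested markers of lipid-associated macrophages. What these differences contribute to the results was not tested.

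**Figure D1:**
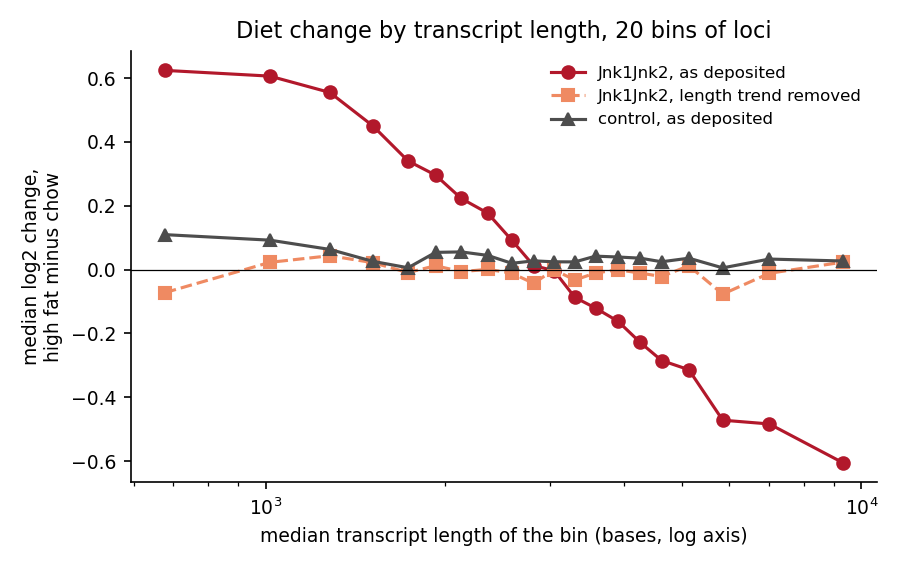
Median log2 change of high fat minus chow (vertical axis) in 20 bins of loci by transcript length (horizontal log axis, bases). As deposited, the Jnk1Jnk2 medians run from 0.62 in the shortest bin to -0.61 in the longest, while the control medians lie between 0.01 and 0.11 and the Jnk1Jnk2 medians with the length trend removed lie between -0.08 and 0.04.

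Each locus was therefore read in 2 ways: on the deposited values, and on values from which a smooth trend on transcript length had been removed in every library. Values given without a genotype are those of Jnk1Jnk2 livers. A locus is said to have risen or fallen when it had a limma adjusted p (Benjamini-Hochberg, over all loci tested) under 0.05 in the same direction in both readings. As deposited, 3179 of 10562 loci (30.1%) were higher on high fat and 2835 (26.8%) lower, 56.9% in all. With the trend removed the counts were 2079 each of the 10167 loci with a known length (20.4% each, 40.9% in all). In both readings 1496 loci rose (14.7%) and 1490 fell (14.7%), and 58 loci were called in opposite directions. Of the rises 207, and of the falls 131, were by over 1 on the log2 scale with the trend removed. Counts for the gene lists below are to be read beside the shares of 14.7%. The 3 high fat values lay above all 3 chow values at 3405 loci (32.2%) and below them at 3146 (29.8%). In control livers the same double criterion gave 945 rises (9.29%) and 633 falls (6.23%), and 357 rises and 194 falls were shared: 23.9% of the Jnk1Jnk2 rises and 37.8% of the control rises, 13.0% and 30.6% of the falls. The split of the control calls, 1063 higher (10.1%) to 654 lower (6.19%) as deposited, depended on scaling, with 917 to 1008 under size factors and 952 to 1071 under quantile normalization. The diet change differed between the genotypes at 3689 loci (34.9%) as deposited and, in both readings, was more positive in Jnk1Jnk2 at 666 (6.55%) and more negative at 798 (7.85%).

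Genes of lipid-laden macrophages were higher on high fat. Of 14 tested markers of lipid-associated and recruited macrophages, 12 rose and none fell, with a median log2 change of 1.69 as deposited and 1.26 with the length trend removed, against 0.03 and -0.01 over all loci, and 11 of them rose without high fat replicate 3. In control livers 3 of the 14 rose, and the diet change was larger in Jnk1Jnk2 for 6: Trem2, Gpnmb, Lgals3, Cd63, Ctsd and Mmp12. The other 4 markers on the list (Itgax, Ly6c2, Ccr2 and Cx3cr1) were under the filter, at no more than 2.36 FPKM in any high fat Jnk1Jnk2 library. Gpnmb passed the filter only through the group where it was high. Its mean was 13.4 FPKM in high fat Jnk1Jnk2, 4.88 FPKM in high fat livers lacking JNK2 alone and at most 0.60 FPKM in any other group. Without the high fat Jnk1Jnk2 libraries it would average under 1 FPKM, so its place among the 12 is not independent of its rise. The 14 markers together summed to 489 to 886 FPKM on high fat and 306 to 338 FPKM on chow.

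Trem2, the lipid-sensing receptor of these macrophages, was at 2.95, 12.4 and 15.7 FPKM in high fat Jnk1Jnk2 livers and 0.377, 0.931 and 0.492 FPKM in chow Jnk1Jnk2 livers, a log2 change of 2.60 ± 0.36 (SE; adjusted p = 1.23e-05). Lgals3, which encodes galectin-3, was at 9.79, 32.8 and 41.0 FPKM on high fat and 3.09, 3.69 and 3.47 FPKM on chow (2.50 ± 0.34, adjusted p = 1.18e-05). Gpnmb, a transmembrane glycoprotein of lipid-laden macrophages, was at 0.949, 19.3 and 20.0 FPKM on high fat and 0.0801, 0.175 and 0.149 FPKM on chow (3.05 ± 0.57, adjusted p = 0.000198). In all 3 the lowest high fat library, replicate 1, was still above every chow library, and the other 2 were several-fold above replicate 1. The Gpnmb change was 4.19 without replicate 1 and 2.47 without replicate 3. Mmp12, the macrophage elastase, had the same order, with 0.956, 9.00 and 14.7 FPKM on high fat and 0.169, 0.348 and 0.136 FPKM on chow. In control livers the largest single value on high fat was 2.11 FPKM for Trem2, 5.92 FPKM for Lgals3 and 0.609 FPKM for Gpnmb. High fat livers lacking JNK2 alone had Gpnmb at 4.49, 2.47 and 7.66 FPKM, so its rise was not particular to loss of both kinases.

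Resident Kupffer cell markers rose as well, in 7 of 15, with none falling and a median change of 0.75 (0.62 with the length trend removed); 6 rose without replicate 3 and 4 rose in control livers. C1qa, a chain of the complement component C1q made by macrophages, was at 100.4, 103 and 88.2 FPKM on high fat and 26.0, 28.7 and 27.1 FPKM on chow (1.79 ± 0.16, adjusted p = 3.19e-07), so the groups were far apart. Its change was larger than in control livers by 1.28 (adjusted p = 0.00051). Clec4f, the Kupffer cell lectin, was at 71.8, 58.2 and 61.0 FPKM on high fat and 24.4, 29.5 and 24.4 FPKM on chow. Cd5l, a secreted macrophage protein, rose by 1.44 (adjusted p = 6.58e-05). All 5 tested MHC class II genes rose, 4 of them without replicate 3 and 4 in control livers. A locus that pools H2-Ab1 and H2-Eb1, beta chains of antigen-presenting class II molecules, was at 59.6, 78.4 and 88.7 FPKM on high fat and 22.5, 31.2 and 21.5 FPKM on chow, and H2-Aa, the alpha chain, rose too (adjusted p = 9.04e-06). The pooled locus spans H2-Aa, so the 2 values may share reads. The 15 Kupffer markers together summed to 535 to 560.3 FPKM on high fat and 221 to 254 FPKM on chow, and the 5 MHC class II genes to 180 to 254.5 FPKM on high fat and 78.7 to 109 FPKM on chow. Hepatocyte markers summed higher as well. The 11 without a listed 0 summed to 45930 to 55690 FPKM on high fat and 34070 to 35420 FPKM on chow. The FPKM total of all loci was also higher in the high fat libraries, and its part in the sums of any cell type was not tested.

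Interferon-stimulated genes rose in 20 of 26 tested and fell in none, with a median change of 0.85 (0.87 with the trend removed), and 19 rose without replicate 3. Control livers showed the rise too, with 23 of the 26, and the change differed between genotypes for 4, being larger in Jnk1Jnk2 for 2 (Irf7 and Oas1a) and smaller for 2. Isg15, the ubiquitin-like modifier induced by type I interferon, was at 22.9, 32.8 and 35.9 FPKM on high fat and 5.32, 4.97 and 5.22 FPKM on chow. Xaf1, an interferon-induced regulator of apoptosis, was at 13.5, 10.9 and 12.0 FPKM on high fat and 2.27, 3.00 and 1.74 FPKM on chow. Psmb9, a catalytic subunit of the immunoproteasome, rose by 2.04 ± 0.24 (adjusted p = 3.21e-06), and Irf7, the transcription factor that amplifies interferon production, by 1.70 ± 0.18 (adjusted p = 1.4e-06). Of 17 tested chemokine and cytokine genes 6 rose (5 without replicate 3) and none fell. Ccl2, which recruits monocytes, was at 2.63, 2.84 and 4.29 FPKM on high fat, against 0.0860 and 0.240 FPKM in 2 chow livers and a listed 0 in the third. Cxcl9, a T cell chemokine induced by interferon gamma, was at 4.34, 3.73 and 5.15 FPKM on high fat and 1.05, 2.06 and 1.32 FPKM on chow. Of the 4 lymphocyte and neutrophil markers above the filter, none passed in both readings, but 3 were higher as deposited and all 4 had separate groups, with a median change of 1.02, or 0.28 with the trend removed. The 4 summed to 51.4 to 60.3 FPKM on high fat and 13.5 to 24.6 FPKM on chow, and their part in the other results was not tested. Of the list's lymphocyte markers, Cd3e, Cd4 and Cd8a stayed under 1 FPKM on either diet, whereas Cd3g reached 1.44 FPKM and Cd79b 3.46 FPKM on high fat, against at most 0.635 and 1.49 FPKM on chow.

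Stellate cell and fibrosis genes rose in 8 of 20, with none falling, but that count depended on single libraries: it was 13 without high fat replicate 1, 4 without high fat replicate 3, and 5 without chow replicate 1 or 3. Their median change was 0.49, or 0.62 with the trend removed, and 16 of the 20 had their lowest high fat value in replicate 1. The 20 markers summed to 250.1, 292 and 371 FPKM on high fat and 195, 221 and 190 FPKM on chow, and the part of library differences in this was not tested. Col3a1, a fibrillar collagen chain, was at 3.27, 6.94 and 7.63 FPKM on high fat and 1.39, 3.64 and 2.24 FPKM on chow, with one chow library above the lowest high fat one. Lum, the collagen-binding proteoglycan lumican, was at 5.23, 7.81 and 10.0 FPKM on high fat and 3.76, 3.50 and 2.83 FPKM on chow. Among sinusoidal endothelial markers 3 of 15 rose (2 without replicate 3), a share near the 14.7% of all loci. Clec4g, a lectin of those cells, was at 51.0, 57.0 and 64.3 FPKM on high fat and 28.8, 25.4 and 23.5 FPKM on chow, a larger change than in control livers by 0.89 (adjusted p = 0.000691). Krt23, a keratin on the cholangiocyte list, was at 6.39, 8.78 and 10.4 FPKM on high fat and 3.07, 1.62 and 3.43 FPKM on chow. Its control change was -0.67, and the difference between the genotypes was 2.04 (adjusted p = 0.00131). Among hepatocyte markers 3 of 13 fell, Hnf4a and Cps1 (at the shorter of its 2 loci) among them, and 2 rose. Of those 2 rises, 1 is a locus that pools Serpina1a, Serpina1c and Serpina1d. That locus is listed at 0 in all chow Jnk1Jnk2 libraries and is not read as a change. Without high fat replicate 2, 1 rise was left. Of 6 cholangiocyte markers 1 rose (Krt23) and 2 fell, Sox9 among them, against no rise and 1 fall without chow replicate 2 and 1 fall without high fat replicate 1 or 3. None of 4 erythroid or 11 adipocyte, muscle and pancreas markers passed in both readings. Yet the 11 had a median change of 1.85 (1.29 with the trend removed), and 6 had separate groups, higher on high fat. They summed to 21.4, 32.8 and 516 FPKM on high fat and 6.8, 5.44 and 7.465 FPKM on chow. The part of other tissue in this was not tested.

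**Figure D2:**
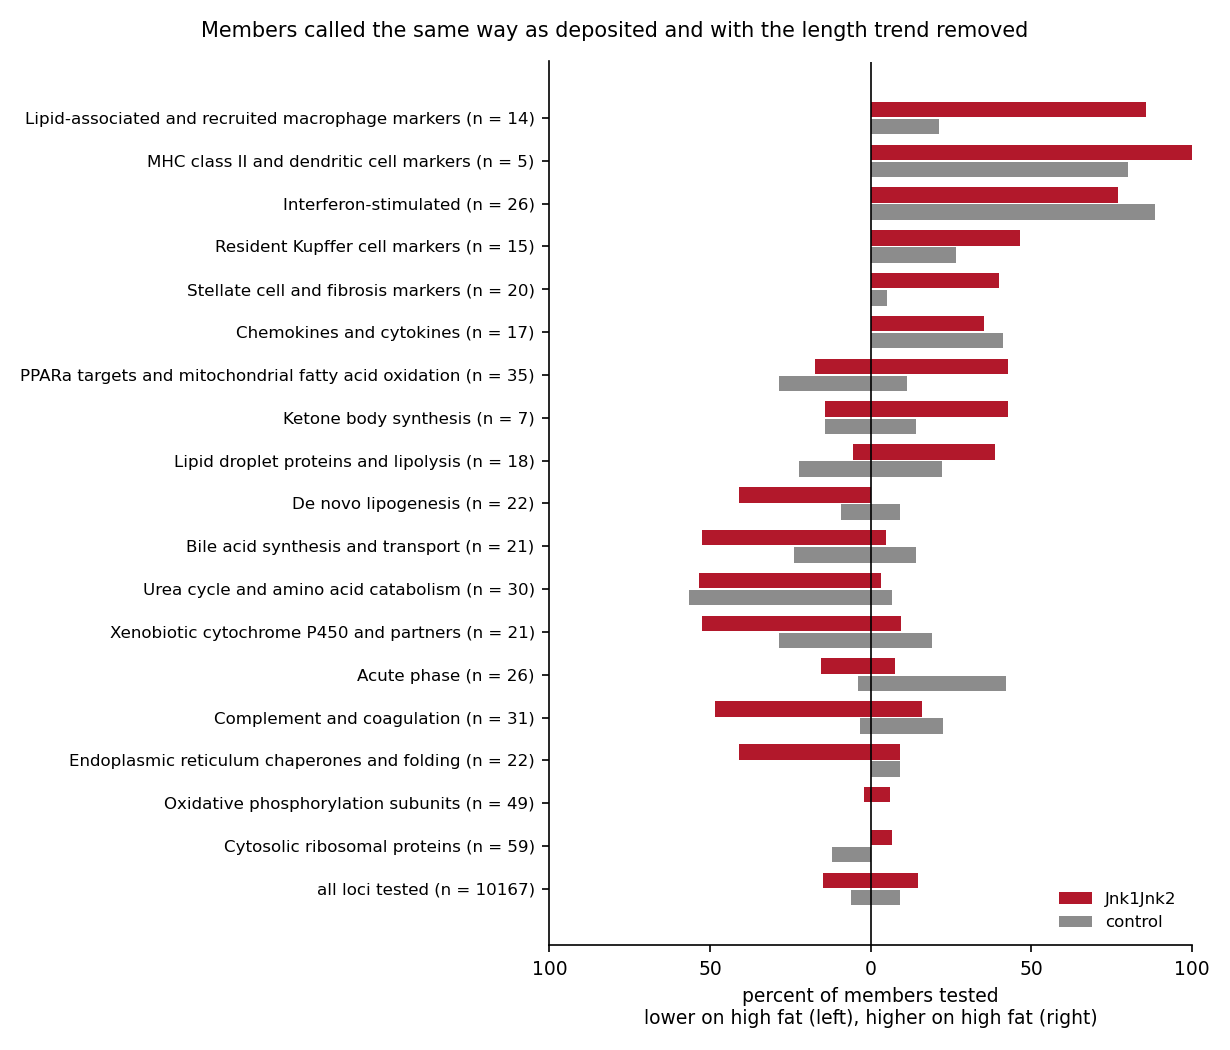
Percent of tested members of each gene list that rose (right) or fell (left) on high fat in both readings, with Jnk1Jnk2 bars above control bars and n the members tested. Of the macrophage markers 12 of 14 rose in Jnk1Jnk2 and 3 in control, whereas complement and coagulation genes fell in 15 of 31 in Jnk1Jnk2 and in 1 in control, beside 14.7% of all loci in each direction in Jnk1Jnk2.

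Fatty acid oxidation genes moved in both directions. Of 35 tested PPARα targets and mitochondrial oxidation genes, 15 rose and 6 fell (13 and 5 without replicate 3; the Acad11 and Cyp4a10 loci each pool a second gene), with a median change of 0.41 as deposited and 0.12 with the length trend removed. In control livers 4 rose and 10 fell, and the change was more positive in Jnk1Jnk2 for 13 members and more negative for none. Fgf21 and Ucp2 had the largest of the 15 rises with the trend removed, and the 15 included the matrix oxidation enzymes Acadm, Acads, Hadhb, Hadh, Etfb, Eci1, Eci2 and Decr1. Hadh, which oxidises 3-hydroxyacyl-CoA, was at 341.5, 401.4 and 435.4 FPKM on high fat and 188, 179 and 190.2 FPKM on chow. Fgf21, the hepatokine gene induced by PPARα in fasting, was at 39.5, 44.8 and 54.2 FPKM on high fat and 12.6, 12.2 and 6.36 FPKM on chow, a change of 2.09 ± 0.44 (adjusted p = 0.000556), or 1.48 with the length trend removed (adjusted p = 0.0149). Control livers had 6.29, 10.4 and 15.4 FPKM on high fat and 8.84, 8.21 and 11.4 FPKM on chow, without a call; the difference between genotypes was 2.00 as deposited (adjusted p = 0.0181) and 1.48 with the trend removed (adjusted p = 0.111). Livers lacking JNK2 alone had Fgf21 at 12.8, 13.6 and 68.2 FPKM on high fat and 6.57, 5.05 and 7.37 FPKM on chow. Their change was 1.73 (adjusted p = 0.00747), or 1.64 with the trend removed (adjusted p = 0.0149), so the Fgf21 rise was not particular to loss of both kinases. Ucp2, a mitochondrial inner membrane carrier, was at 15.8, 13.3 and 22.2 FPKM on high fat and 5.85, 6.90 and 6.49 FPKM on chow.

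Of the 6 members that fell, 4 encode microsomal fatty acid omega-hydroxylases (Cyp4a10, Cyp4a12a, Cyp4a12b and Cyp4a14), and the others were Acad11 and Etfdh. Cyp4a14 was at 1491, 1173 and 1065 FPKM on high fat and 2866, 2606 and 2673 FPKM on chow. Cyp4a12a, the male-predominant member, was at 11.4, 7.63 and 10.6 FPKM on high fat and 33.4, 42.2 and 43.0 FPKM on chow, and Cyp4a12b was at 6.13, 2.63 and 3.06 FPKM on high fat and 25.0, 28.8 and 24.8 FPKM on chow. All high fat values of these genes were below all chow values. Cyp4a12a and Cyp4a12b fell in control livers too, with changes of -1.14 and -3.04. Cyp4a genes are near-identical copies, so reads may have been split between them. Acot1, a cytosolic acyl-CoA thioesterase and PPARα target, changed by -0.09 in Jnk1Jnk2 (adjusted p = 0.717) and by -1.72 in control (adjusted p = 1.45e-05). Cpt1a, which admits fatty acids to the mitochondrion, was at 140.0, 95.9 and 129.5 FPKM on high fat and 145.5, 155 and 154 FPKM on chow (adjusted p = 0.0991).

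Peroxisomal genes rose in 6 and fell in 4 of 19 tested; without chow replicate 3 the rises were 3, without high fat replicate 3 they were 4, and without high fat replicate 2 the falls were 2. Abcd2, a peroxisomal fatty acid transporter, was at 5.13, 7.28 and 9.56 FPKM on high fat and 2.21, 3.03 and 2.76 FPKM on chow. Acot3, a peroxisomal acyl-CoA thioesterase, was at 27.4, 28.4 and 35.6 FPKM on high fat and 13.2, 16.2 and 11.6 FPKM on chow, whereas its control change was -0.78, and the difference between genotypes was 1.88. Ehhadh, the bifunctional enzyme of peroxisomal oxidation, was at 425.2, 275.4 and 345 FPKM on high fat and 900.5, 763 and 670.0 FPKM on chow, and its fall in control livers was -2.13. Ketone body genes rose in 3 of 7 and fell in 1; that fall was lost without replicate 1 or 3 on high fat or replicate 1 or 2 on chow. All 3 rises were larger than in control livers. Bdh1, the 3-hydroxybutyrate dehydrogenase, was at 138, 149 and 178 FPKM on high fat and 59.5, 68.5 and 60.2 FPKM on chow (1.29 ± 0.12, adjusted p = 5.32e-07), against a control change of 0.27. Acat1, the mitochondrial acetoacetyl-CoA thiolase, was at 213, 254.5 and 287 FPKM on high fat and 146, 132 and 137 FPKM on chow.

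Lipid droplet genes rose in 7 of 18 and fell in 1 (the same counts without replicate 3, but no fall when any of the other 5 libraries was left out), with a median change of 0.57 (0.38 with the trend removed). Cidec, the droplet fusion protein, was at 57.8, 54.9 and 64.4 FPKM on high fat and 20.2, 11.7 and 16.2 FPKM on chow (1.85 ± 0.37, adjusted p = 0.000361). Control livers had 14.5, 5.03 and 4.33 FPKM on high fat and 12.3, 11.3 and 17.2 FPKM on chow, and the difference between the genotypes was 2.71 (adjusted p = 0.000864). The 3 high fat Jnk1Jnk2 values of Cidec lay above all values of the chow Jnk1Jnk2 and control groups. High fat livers lacking JNK2 alone also had high Cidec, at 52.9, 50.1 and 145.8 FPKM. Their change from chow was 2.64, so the rise was not particular to loss of both kinases. G0s2, an inhibitor of the triglyceride lipase ATGL, was at 826.3, 740.3 and 765 FPKM on high fat and 274, 239 and 127 FPKM on chow. Fitm1, an endoplasmic reticulum protein of droplet formation, rose by 1.77 ± 0.25 (adjusted p = 1.38e-05). Cd36, the fatty acid uptake receptor, was at 27.9, 47.0 and 71.0 FPKM on high fat and 17.9, 18.0 and 18.6 FPKM on chow, and rose by a like amount in control (1.27 in Jnk1Jnk2 and 1.48 in control; the difference was -0.20, adjusted p = 0.667). Its change without high fat replicate 3 was 0.96.

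Lipogenic genes fell in 9 of 22 and rose in none (8 and 0 without replicate 3), against 2 rises and 2 falls in control livers, and the change was more negative in Jnk1Jnk2 for 6. Lpin1, a phosphatidate phosphatase of triglyceride synthesis, was at 6.27, 4.40 and 5.64 FPKM on high fat and 36.2, 33.2 and 28.4 FPKM on chow (-2.39 ± 0.46, adjusted p = 0.000237). Fasn, the fatty acid synthase, was at 2.73, 2.06 and 3.40 FPKM on high fat and 7.25, 9.01 and 10.3 FPKM on chow. Gpam, the mitochondrial glycerol-3-phosphate acyltransferase, was at 8.14, 5.68 and 13.8 FPKM on high fat and 24.1, 23.9 and 29.6 FPKM on chow. All 3 genes had separate groups, and the difference from the control change was -2.22 for Lpin1 (adjusted p = 0.0122), -1.65 for Fasn and -1.36 for Gpam (adjusted p = 0.00319). Scd1, the stearoyl-CoA desaturase, was at 20.3, 52.0 and 122.5 FPKM on high fat and 274, 290 and 249.6 FPKM on chow, and its call ended without high fat replicate 1 (-1.75, adjusted p = 0.0603).

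Of 26 cholesterol synthesis and uptake genes 1 rose and 4 fell, a share near that of all loci. With 1 library left out the falls were 1 to 3 (1 without high fat replicate 1 or 2 or chow replicate 3, 2 without chow replicate 1 or 2), and the rise was lost in every such setting but without chow replicate 2. Insig1, the sterol-regulated anchor of SREBP processing, was at 17.8, 14.6 and 23.8 FPKM on high fat and 24.9, 36.7 and 33.3 FPKM on chow. Among 25 sterol efflux and lipoprotein genes 6 rose and 2 fell (7 and 2 without replicate 3). Apoa4, an apolipoprotein of chylomicrons that fatty liver also makes, was at 1352, 1184 and 1699 FPKM on high fat and 241.5, 171 and 220 FPKM on chow (2.74 ± 0.41, adjusted p = 2.49e-05), against a control change of 0.35 (adjusted p = 0.6). The Gm10680 locus overlaps it and moved with it, at 2900, 2843 and 3599 FPKM on high fat and 500.3, 344 and 433 FPKM on chow, so reads of the 2 loci may not be separable. Apob, the structural protein of very low density lipoprotein, was at 137, 101 and 123 FPKM on high fat and 372, 420.5 and 444 FPKM on chow (-1.77 ± 0.16, adjusted p = 3.19e-07; -1.01 with the length trend removed, adjusted p = 9.75e-07). Control livers gave 473, 370.3 and 369 FPKM on high fat and 334, 347 and 395 FPKM on chow, and the difference between genotypes was -1.94 (adjusted p = 2.86e-05) and -1.14 with the trend removed. Mttp, which loads lipid onto apolipoprotein B, fell too.

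**Figure D3:**
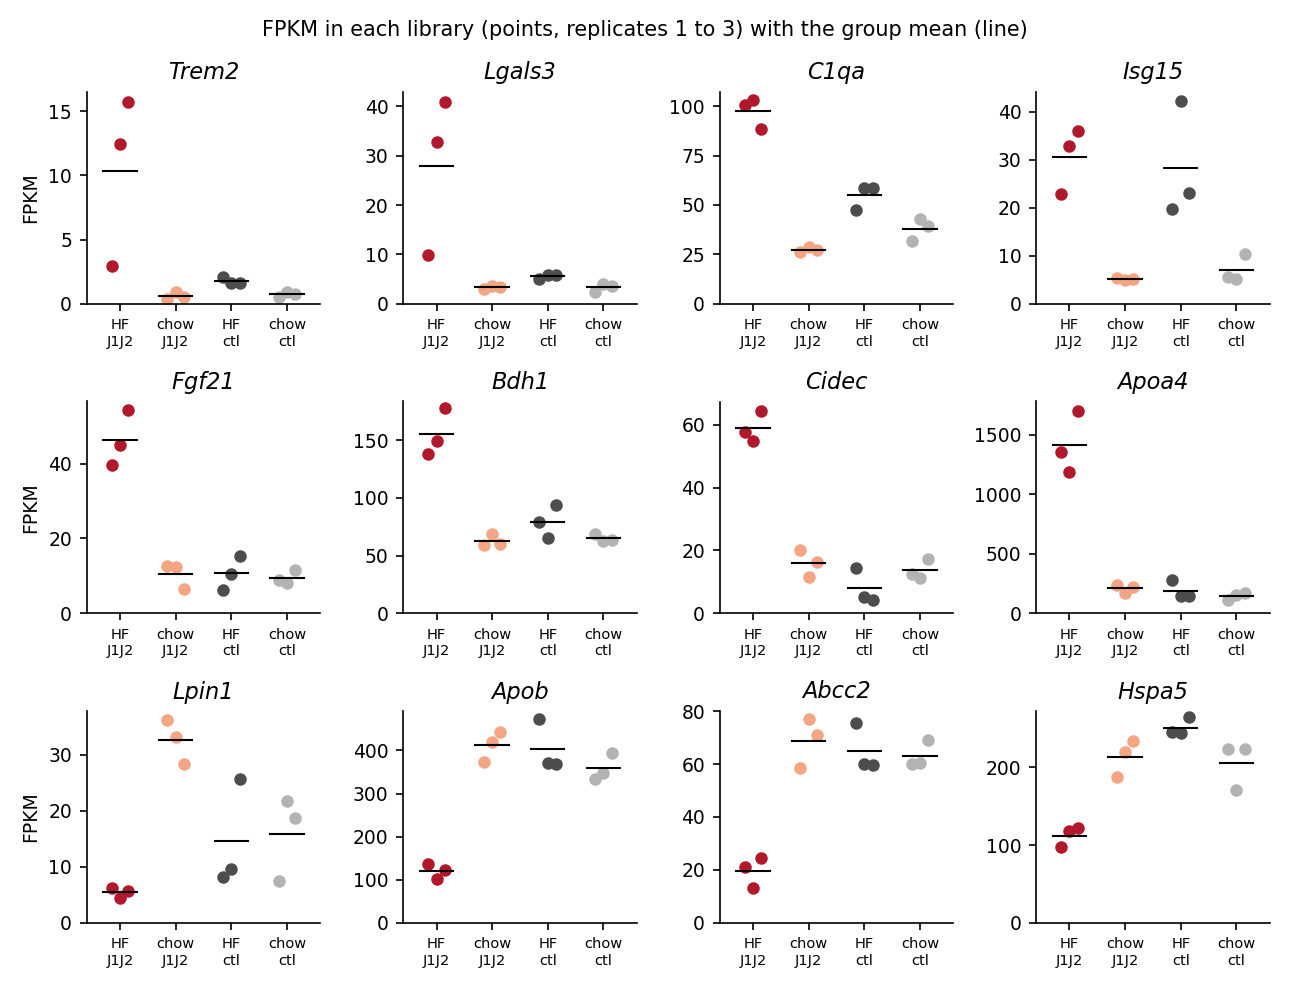
FPKM of 12 genes in each library (points, replicates 1 to 3 from left to right) with the group mean (line), for high fat (HF) and chow Jnk1Jnk2 (J1J2) and high fat and chow control (ctl) livers. Trem2 and Lgals3 are lowest in high fat replicate 1 yet above chow, Fgf21, Bdh1, Cidec and Apoa4 are highest in the 3 high fat Jnk1Jnk2 libraries of those shown, Isg15 is high on high fat in both genotypes, and Lpin1, Apob, Abcc2 and Hspa5 are low in high fat Jnk1Jnk2.

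Endoplasmic reticulum chaperone and folding genes fell in 9 of 22 and rose in 2, with a median change of -0.32 (-0.47 with the trend removed), and the counts were the same without replicate 3. In control livers 2 rose and none fell, and the change was more negative in Jnk1Jnk2 for 9 members and more positive for 1, Erp29. These genes encode the proteins that fold secreted and membrane proteins and are induced in the unfolded protein response. Hspa5, the chaperone BiP, was at 97.6, 118 and 122 FPKM on high fat and 188, 220.4 and 233.5 FPKM on chow (-0.93 ± 0.16, adjusted p = 0.000105). Hsp90b1, the chaperone GRP94, was at 122, 119 and 126 FPKM on high fat and 219, 195 and 216 FPKM on chow (-0.77 ± 0.09, adjusted p = 3e-06). Control livers were higher on high fat in the mean for both, with changes of 0.30 and 0.24 that did not pass (adjusted p = 0.22 and 0.0779), and the difference between genotypes was -1.22 for Hspa5 (adjusted p = 0.000666) and -1.01 for Hsp90b1 (adjusted p = 6.59e-05). Canx, the lectin chaperone calnexin, was at 30.6, 30.1 and 32.2 FPKM on high fat and 52.6, 51.4 and 52.2 FPKM on chow. Dnajc3, a cochaperone of BiP, was at 20.2, 19.9 and 23.9 FPKM on high fat and 40.4, 33.7 and 34.5 FPKM on chow. The groups were separate for these 4 genes. Hyou1, a large chaperone of the Hsp70 family, fell by 1.04 (adjusted p = 0.000709), while Erp29, a folding factor related to disulfide isomerases, rose by 0.60 (adjusted p = 0.000427).

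The endoplasmic reticulum stress element, CCAAT and CCACG with a fixed stretch of any bases between them (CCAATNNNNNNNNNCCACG), was searched on both strands in RefSeq windows of 300 bases around each start (GRCm38.p6). It was present in 8 of the 19 list members with a window in the table, against 37 of 27025 genes in the whole table (0.137%). Of the 8 members, 4 fell (Canx, Dnajc3, Hsp90b1 and Hspa5) and none rose, and of the other 11 with a window, 4 fell. The windows of the 4 that fell are shown because they hold the same element, in capitals, on the forward or the reverse strand; a match is a description of the sequence only.
Canx (chr11:50325624-50325923, minus strand): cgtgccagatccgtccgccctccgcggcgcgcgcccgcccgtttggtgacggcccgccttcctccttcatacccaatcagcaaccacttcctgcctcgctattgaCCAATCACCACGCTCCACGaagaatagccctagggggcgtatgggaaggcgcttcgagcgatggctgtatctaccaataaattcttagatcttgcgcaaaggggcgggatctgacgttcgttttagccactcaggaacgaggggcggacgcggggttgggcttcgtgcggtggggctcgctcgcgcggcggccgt
Dnajc3 (chr14:118937682-118937981, plus strand): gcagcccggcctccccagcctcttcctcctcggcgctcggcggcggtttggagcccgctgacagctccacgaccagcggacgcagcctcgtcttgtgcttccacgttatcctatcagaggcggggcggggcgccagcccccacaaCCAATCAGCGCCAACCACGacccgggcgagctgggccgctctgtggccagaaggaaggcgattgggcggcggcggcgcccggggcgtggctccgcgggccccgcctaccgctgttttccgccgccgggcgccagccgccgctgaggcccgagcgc
Hsp90b1 (chr10:86705395-86705694, minus strand): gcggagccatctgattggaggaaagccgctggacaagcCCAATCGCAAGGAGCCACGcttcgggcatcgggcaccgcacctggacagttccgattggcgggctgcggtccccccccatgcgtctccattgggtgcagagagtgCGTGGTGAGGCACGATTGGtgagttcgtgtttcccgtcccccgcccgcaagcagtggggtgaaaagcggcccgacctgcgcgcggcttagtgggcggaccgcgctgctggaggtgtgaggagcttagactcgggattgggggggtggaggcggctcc
Hspa5 (chr2:34771840-34772139, plus strand): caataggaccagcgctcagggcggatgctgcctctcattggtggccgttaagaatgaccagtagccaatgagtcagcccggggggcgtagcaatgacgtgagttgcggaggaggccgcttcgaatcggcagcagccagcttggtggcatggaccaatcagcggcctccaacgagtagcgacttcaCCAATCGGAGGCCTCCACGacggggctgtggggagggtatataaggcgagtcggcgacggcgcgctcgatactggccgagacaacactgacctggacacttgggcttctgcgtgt
Hsp90b1 holds the element 2 times, once on each strand, and the other windows hold it 1 time. Another motif, the direct repeat 1 bound by PPARα, was searched in the same way. It was in 0 of 27 PPARα list members and 0 of 14 peroxisomal members with a window, against 13 of 27025 genes (0.0481%). An exact motif this rare would seldom occur in lists of that size, so the 0 counts cannot tell these lists from other genes.

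Genes of secreted plasma proteins responded to the diet differently in the 2 genotypes. Of 31 complement and coagulation genes 15 fell and 5 rose in Jnk1Jnk2 (13 and 5 without replicate 3), whereas 1 fell and 7 rose in control, and the change was more negative in Jnk1Jnk2 for 14 and more positive for 1, C1qa. C3, the central complement component, was at 557, 355 and 489 FPKM on high fat and 1020, 1253 and 1194 FPKM on chow (-1.32 ± 0.19, adjusted p = 1.95e-05). Control livers changed by 0.43 (adjusted p = 0.132), and the difference was -1.76 (adjusted p = 0.000181). C6 and C8b, components of the membrane attack complex, fell by 1.52 and 1.01 on the log2 scale (adjusted p = 6.81e-05 and 0.000312). F5, coagulation factor V, was at 34.2, 22.5 and 27.9 FPKM on high fat and 66.4, 84.4 and 78.5 FPKM on chow. Of 26 acute phase genes 2 rose and 4 fell (2 and 3 without replicate 3, 1 and 3 without high fat replicate 2 or chow replicate 1), against 11 rises and 1 fall in control, and the change was more negative in Jnk1Jnk2 for 10. The Jnk1Jnk2 falls were a share near that of all loci (14.7%). Lbp, the lipopolysaccharide binding protein, was at 44.2, 42.9 and 31.8 FPKM on high fat and 66.9, 59.2 and 60.4 FPKM on chow, with a difference from the control change of -0.97 (adjusted p = 0.00315). Steap4, a metalloreductase induced by inflammation, rose in both genotypes, by 0.88 in Jnk1Jnk2 and 2.58 in control (difference -1.70, adjusted p = 0.00159). Serpina3m, a plasma serine protease inhibitor whose locus is pooled with Serpina3k, fell by 0.72 in Jnk1Jnk2 and by 0.64 in control, and belongs to a family of near-identical copies.

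Bile acid genes fell in 11 of 21 and rose in 1 (10 and 1 without replicate 3, 9 and 0 without chow replicate 3), with a median change of -0.61 (-0.60 with the trend removed), against 5 falls and 3 rises in control. Canalicular transporters were among the falls. Abcc2, the organic anion exporter MRP2, was at 21.1, 13.0 and 24.4 FPKM on high fat and 58.5, 76.9 and 70.8 FPKM on chow (-1.80 ± 0.22, adjusted p = 3.43e-06), and Abcb11, the bile salt export pump, was at 23.6, 25.8 and 25.8 FPKM on high fat and 51.4, 53.5 and 53.0 FPKM on chow. In control livers the changes were 0.04 for Abcc2 and 0.28 for Abcb11, neither called, and the differences between genotypes were -1.84 (adjusted p = 0.000294) and -1.32. Cyp7a1, the hydroxylase that starts the classical bile acid pathway, was at 14.3, 9.36 and 19.2 FPKM on high fat and 32.8, 29.4 and 31.2 FPKM on chow in Jnk1Jnk2 livers, but at 42.8, 52.7 and 42.2 FPKM on high fat and 15.9, 17.6 and 27.8 FPKM on chow in control livers. The groups were separate in each genotype and in opposite order, with a difference of -2.29 (adjusted p = 0.00164); the Jnk1Jnk2 call ended without high fat replicate 2 (-0.87, adjusted p = 0.0599). Slco1a4, a sinusoidal uptake carrier, and Cyp7b1, the oxysterol hydroxylase of the alternative pathway, fell by 1.52 and 0.81 on the log2 scale, and their changes in control were -1.24 and -0.87.

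Urea cycle and amino acid genes fell in about the same number in both genotypes. Of 30 urea cycle and amino acid genes 16 fell and 1 rose in Jnk1Jnk2 (13 and 0 without replicate 3, with no rise in any setting but without high fat replicate 1), 17 fell and 2 rose in control, and the change differed for 1, Uroc1. Tat, the tyrosine aminotransferase, was at 337, 211 and 262 FPKM on high fat and 752, 805 and 720.2 FPKM on chow. Cth, the cystathionine gamma-lyase, was at 285, 192 and 219.9 FPKM on high fat and 553.5, 437 and 596 FPKM on chow. Asl, the urea cycle enzyme argininosuccinate lyase, was at 353, 277 and 221 FPKM on high fat and 635, 639 and 699 FPKM on chow. High fat values were below chow values in every library for these 3. Cps1, the first enzyme of the cycle, is split over 2 loci in the table: the gene body (chr1:67123066-67230448) was at 148, 69.9 and 86.7 FPKM on high fat and 669, 688 and 727 FPKM on chow (-2.83 ± 0.29, adjusted p = 1.07e-06), while a short locus at its end (chr1:67230808-67231261) was at 911, 591 and 243.5 FPKM on high fat and 1205, 1073 and 1215 FPKM on chow (-1.19, or -0.66 without replicate 3). Of the 2, the longer locus alone differed from its control change (-2.28, adjusted p = 0.000564). Gene lists took each gene at its locus of highest mean FPKM, which for Cps1 is the short one. The longer locus is therefore outside the list counts, including that of genes whose change differed. Transcript length was set by gene name, so the short locus was given the length of the full Cps1 transcript when the trend was removed.

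Of 23 NRF2 and glutathione genes 6 fell and 1 rose, beside 14.7% of all loci in each direction, against 7 falls and no rise in control. The falls were 3 without high fat replicate 3 or chow replicate 2 and 4 without any 1 of the other libraries. Gstp1, a pi-class glutathione transferase, was at 469, 417 and 418 FPKM on high fat and 662, 809 and 631 FPKM on chow; its copy Gstp2 moved with it and may share its reads.

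Xenobiotic cytochrome P450 genes fell in 11 of 21 and rose in 2 (10 and 2 without replicate 3). Cyp1a2, the aryl hydrocarbon receptor target, was at 67.4, 84.9 and 80.7 FPKM on high fat and 315, 163 and 285 FPKM on chow, with a control change of -0.16 and a difference of -1.49 (adjusted p = 0.0156). Cyp3a11, the main drug-metabolising form induced by PXR, was at 191, 409 and 530.5 FPKM on high fat and 829, 1385 and 1158 FPKM on chow. Its fall in control was larger, at -3.45, and the difference was 1.79 (adjusted p = 0.0029). Cyp2b9, a female-predominant form, was at 17.6 FPKM in replicate 1 and up to 62.6 FPKM in the other high fat libraries, against 0.0313 and 0.523 FPKM in 2 chow livers and a listed 0 in the third, and was also high in the control livers on high fat (77.7, 79.6 and 67.6 FPKM). Of 18 growth hormone dependent and sex-biased genes 5 fell and none rose, among them Cyp2d9, a male-predominant steroid hydroxylase, at 424, 486 and 400 FPKM on high fat and 658, 846 and 714 FPKM on chow, and Elovl3, a fatty acid elongase, at 44.0, 53.0 and 30.7 FPKM on high fat and 93.3, 109 and 72.4 FPKM on chow. In control livers 5 of the 18 fell and 1 rose, and the change was more positive in Jnk1Jnk2 for 1 and more negative for none.

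Glucose and insulin genes gave few changes in common. Of 26 gluconeogenic and glycolytic genes 4 rose and 5 fell (3 falls without chow replicate 3), and of 20 insulin and IGF genes 2 rose and 2 fell (1 rise without chow replicate 1 or high fat replicate 2). These shares were near those of all loci, 14.7% in each direction. Pck1, which commits oxaloacetate to gluconeogenesis, was at 902, 628.5 and 671 FPKM on high fat and 1539, 1787 and 1433 FPKM on chow, and G6pc, the glucose-6-phosphatase, fell by 0.74 (adjusted p = 0.0105). Both fell in control as well, by 0.98 and 1.39. Pkm, the pyruvate kinase of muscle and immune cells, was at 8.15, 13.1 and 20.3 FPKM on high fat and 4.86, 4.45 and 3.39 FPKM on chow, with its highest value in the library with muscle transcripts; its change was 1.43, or 1.13 without that library. Insr, the insulin receptor, was at 7.26, 4.94 and 7.92 FPKM on high fat and 16.7, 18.5 and 18.1 FPKM on chow (-1.30 ± 0.15, adjusted p = 2.27e-06; -0.69 with the trend removed), against 21.1, 16.7 and 19.9 FPKM on high fat and 17.1, 16.5 and 17.1 FPKM on chow in control livers. Irs2, the insulin receptor substrate of liver, was at 0.729, 0.444 and 0.600 FPKM on high fat and 3.31, 3.61 and 2.78 FPKM on chow, and it fell in control too, by 0.95.

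Of 15 JNK pathway kinases 1 rose and 3 fell in both readings, while 10 were lower as deposited. Mapk8 and Mapk9 were themselves lower on high fat in Jnk1Jnk2 livers as deposited (-0.56, adjusted p = 0.000269, and -0.39, adjusted p = 0.000656) and not with the length trend removed (-0.18, adjusted p = 0.15, and -0.12, adjusted p = 0.153). Map3k5, the stress kinase ASK1, was at 4.41, 3.37 and 2.86 FPKM on high fat and 7.99, 8.63 and 10.2 FPKM on chow, and Map2k4, the kinase MKK4 that phosphorylates JNK, at 6.67, 6.51 and 7.11 FPKM on high fat and 9.44, 9.88 and 9.48 FPKM on chow. Of 13 AP-1 and immediate early genes 1 rose (Atf3) and 1 fell (Atf2), and of 14 ATF4 and CHOP targets Atf3 alone passed. Without high fat replicate 3 neither list held a call, and without chow replicate 1 or 3 the AP-1 list held no fall. The AP-1 list held 2 falls without high fat replicate 2, and the ATF4 list held 2 rises without high fat replicate 1 or chow replicate 2 and 1 fall without chow replicate 3. Core clock genes and outputs fell in 6 of 19 and rose in 1; the falls were 3 to 6 when 1 library was left out. Dbp, a clock output transcription factor, was at 46.2, 42.5 and 50.1 FPKM on high fat and 9.63, 12.4 and 23.9 FPKM on chow, and changed by 1.63 in each genotype; its locus overlaps Sphk2, as does that of Rpl18. Arntl, the core clock activator, was at 0.661, 0.553 and 0.221 FPKM on high fat and 2.45, 2.30 and 1.57 FPKM on chow. Ccnd1, cyclin D1, was at 8.56, 10.2 and 12.9 FPKM on high fat and 2.34, 2.76 and 2.65 FPKM on chow, and 5 of 12 cell cycle genes rose (4 without replicate 3). Hnf4a, the master hepatocyte transcription factor, was at 73.9, 61.9 and 75.2 FPKM on high fat and 139.5, 154 and 157 FPKM on chow, with a control change of -0.32 (adjusted p = 0.249).

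For lists of short transcripts the 2 readings parted. Of 49 oxidative phosphorylation subunits 39 were higher and 1 lower as deposited, but 4 higher and 5 lower with the trend removed. Of 59 cytosolic ribosomal protein genes 34 were higher and none lower as deposited, but 4 higher and 17 lower with the trend removed. Proteasome subunits gave 21 higher and 2 lower as deposited, and 4 and 8 with the trend removed. Members that rose in both readings were few. Ndufb7, a complex I subunit, was at 249.1, 299.9 and 293 FPKM on high fat and 129, 109.6 and 109 FPKM on chow. Sdhc, an anchor subunit of complex II, was at 162, 209 and 210.2 FPKM on high fat and 119.8, 120.1 and 118 FPKM on chow. Rpl18 and Psmb1, a large ribosomal subunit protein and a proteasome beta subunit, rose by 0.64 and 0.90.

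The 10 largest rises and 10 largest falls among loci with separate groups in both readings included, beside genes already named, several with like changes in control. Serpina7, the thyroxine-binding globulin gene, was at 17.1, 32.1 and 46.8 FPKM on high fat and 3.07, 4.40 and 4.05 FPKM on chow (2.67 ± 0.38, adjusted p = 1.49e-05), with a control change of 3.05. Lgals1, galectin-1, was at 28.0, 62.0 and 66.2 FPKM on high fat and 5.25, 6.69 and 5.32 FPKM on chow, with a control change of 2.09. In both, replicate 1 was the lowest high fat library and stood above every chow library. Tpm2, the beta tropomyosin of muscle cells, was at 10.2, 19.3 and 70.5 FPKM on high fat and 1.53, 2.69 and 1.74 FPKM on chow, and its change was 3.10, or 2.36 without the library with muscle transcripts. Pnldc1, a poly(A)-specific ribonuclease-like gene, was at 10.8, 11.5 and 11.3 FPKM on high fat and 0.809, 1.09 and 1.05 FPKM on chow, and its rise exceeded that in control by 1.18 (adjusted p = 0.00421). Rad51l1, a homologous recombination gene, was at 18.5, 20.4 and 18.9 FPKM on high fat and 2.37, 3.79 and 2.50 FPKM on chow, and the unnamed locus 9030619P08Rik was at 28.1, 40.8 and 46.5 FPKM on high fat and 2.62, 4.53 and 3.69 FPKM on chow.

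Among the falls, Agxt2l1, an ethanolamine phosphate phospholyase, was at 6.66, 6.14 and 4.63 FPKM on high fat and 75.3, 68.9 and 75.8 FPKM on chow (-3.46 ± 0.26, adjusted p = 1.03e-07), with a control change of -2.36. The unnamed locus E030018B13Rik, which overlaps Klf13, was at 1.47, 0.787 and 0.437 FPKM on high fat and 18.1, 8.46 and 15.1 FPKM on chow, and Moxd1, a monooxygenase-like gene, was at 1.91, 0.190 and 0.0834 FPKM on high fat and 13.2, 19.6 and 6.53 FPKM on chow. Both had like changes in control, -2.86 and -2.98. Serpina1e, an alpha-1-antitrypsin copy, was at 1070, 343 and 351 FPKM on high fat and 1966, 2786 and 1930 FPKM on chow; its family shares reads. Selenbp2, a selenium-binding protein gene, was at 11.3, 2.59 and 2.96 FPKM on high fat and 24.7, 22.9 and 21.6 FPKM on chow. In both, replicate 1 was the highest of the high fat libraries and below every chow library. Ugt2b38, a glucuronosyltransferase, fell by 1.85, and Gm4956 by 1.63; the Gm4956 change differed from that in control by -1.79 (adjusted p = 0.0405). Cnot3, a subunit of the CCR4-NOT deadenylase, is in this set through 1 library: it was at 4.02, 2.60 and 4.29 FPKM on high fat and 5.51, 570 and 5.87 FPKM on chow, and its change was -0.55 without chow replicate 2 and -2.69 with it. Its call ended without high fat replicate 2 (-2.51, adjusted p = 0.0731).

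Large differences in diet change between genotypes, beside those of Gpnmb, Apoa4, Cidec, Cps1, Cyp7a1 and Gm4956, were also found at Lamb3, Rab30 and Cyb5d1. Lamb3, a laminin chain, was at 11.8, 11.1 and 15.1 FPKM on high fat and 2.95, 2.33 and 3.17 FPKM on chow in Jnk1Jnk2 livers, and at 3.53, 2.32 and 2.83 FPKM on high fat and 3.29, 2.12 and 2.85 FPKM on chow in control livers, a difference of 1.78 (adjusted p = 8.54e-05). Its locus spans G0s2, which also rose, so reads may be shared. Rab30, a Golgi GTPase, was at 17.0, 22.3 and 17.5 FPKM on high fat and 15.0, 12.6 and 10.6 FPKM on chow in Jnk1Jnk2 livers, and at 9.58, 11.2 and 8.59 FPKM on high fat and 17.0, 20.5 and 19.0 FPKM on chow in control livers. The groups were separate in each genotype and in opposite order (difference 1.43, adjusted p = 0.000293), but the Jnk1Jnk2 call ended without chow replicate 3 or high fat replicate 2 (0.43 in each). Cyb5d1, a cytochrome b5 domain gene, was at 2.71, 1.21 and 4.38 FPKM on high fat and 7.75, 7.00 and 6.24 FPKM on chow, with a difference of -1.50 (adjusted p = 0.0029).

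**Figure D4:**
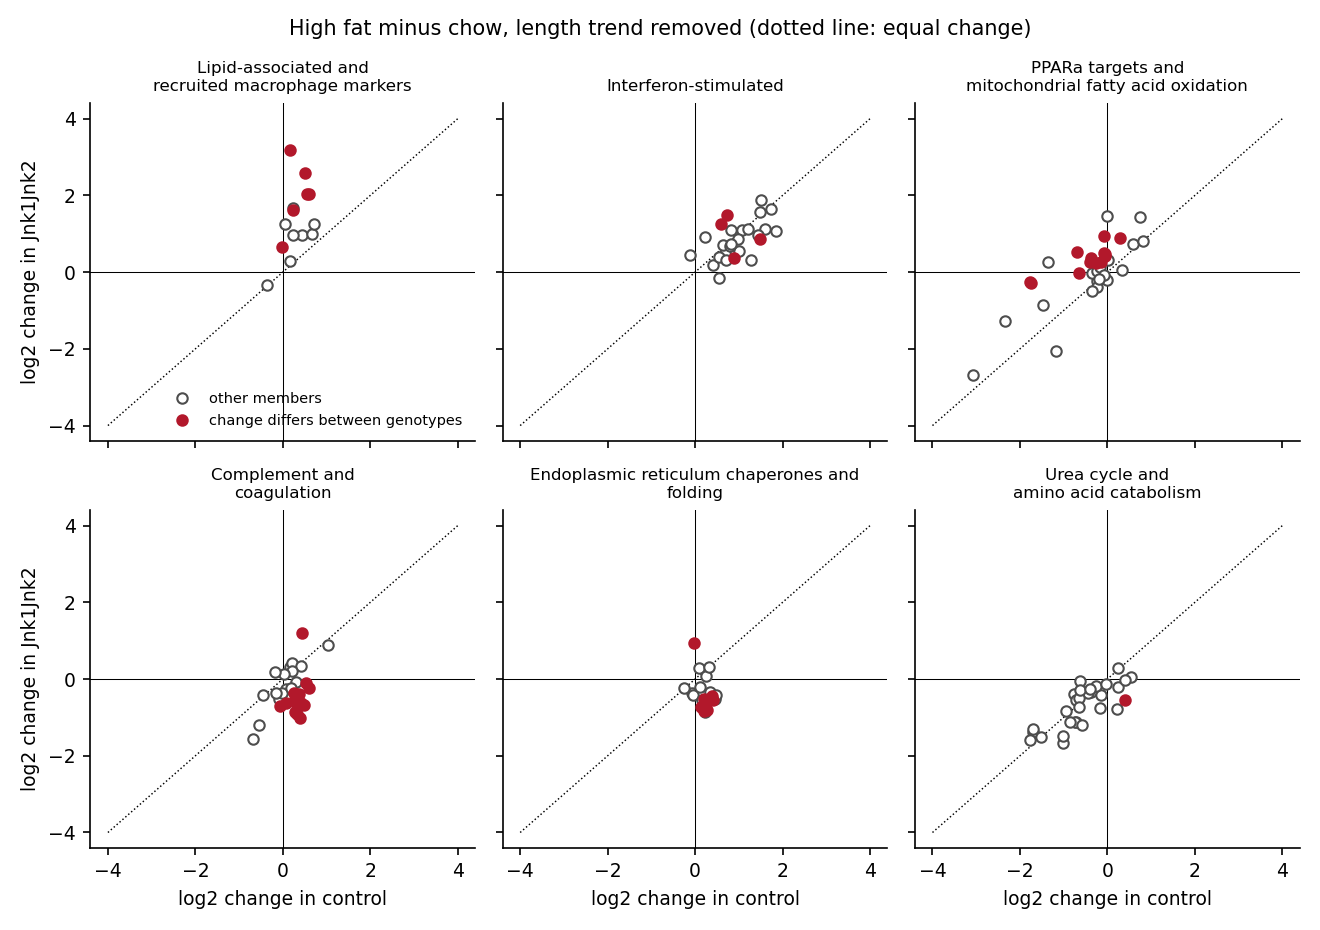
Log2 diet change (high fat minus chow, length trend removed) in Jnk1Jnk2 (vertical axis) against control (horizontal axis) for the tested members of 6 lists; filled points differ between the genotypes in both readings and the dotted line marks equal change. Interferon and amino acid genes lie along the line with 4 and 1 filled points, macrophage markers lie above it with 6 filled, and 14 complement and 9 chaperone genes lie below it.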

How the data were processed

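Liver RNA was prepared with the RNeasy kit (RIN above 9) and sequenced with Illumina libraries, per the labels' protocols. The authors deposited FPKM values per locus for 24 libraries (8 groups of 3); TopHat, Cufflinks, Cuffdiff and the mm10 build are named in the submitters' processing notes, and versions are not given in the sources used here. FPKM hold no read totals, so absolute depth is unknown; relative depth, from the size of the smallest steps in low values, ran from 0.3 to 1.0.

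Loci averaging 1 FPKM or more (10562) entered the test. The log2(FPKM + 1) values, a scale that understates changes of low loci, were analysed with limma-trend (R 4.3.3, limma 3.58.1) in 1 fit of all 24 libraries with Benjamini-Hochberg adjustment. A loess trend (span 0.5) on GENCODE transcript length was removed per library for the second reading (10167 loci, 96.3%). Simulated data with known changes were used to test the fit. The exact zeros of 16 loci whose other libraries are high are taken as failed estimates. Genes named are the 10 largest rises and falls with separate groups, up to 4 per list called in both readings, the 5 largest and smallest genotype differences, and others chosen after their values were seen. The lists and the comparison were chosen with earlier results of these data known. Same-numbered libraries were not paired: their deviations correlated at -0.10 to -0.02. Some genes are not reported here.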

Additional observations from a re-analysis of the deposited data

Results flagged for a closer look

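A difference in diet change between Jnk1Jnk2 and control livers (interaction term, limma adjusted p under 0.05 as deposited and with the length trend removed) was found for the following genes, each given as the Jnk1Jnk2 change minus the control change on the log2 scale as deposited. Macrophage and antigen presentation genes had larger rises in Jnk1Jnk2, with 2.85 for Gpnmb, 1.93 for Mmp12, 1.93 for Trem2, 1.89 for Lgals3, 1.28 for C1qa and 0.93 for H2-DMb1 (pooled with H2-DMb2). Clec4g, a sinusoidal endothelial gene, differed by 0.89, Irf7 by 0.92 and Krt23 by 2.04.

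Lipid and ketone genes with a more positive change in Jnk1Jnk2 were Cidec (2.71), Apoa4 (2.38) with its overlapping locus Gm10680 (2.59), Bdh1 (1.01) and Acat1 (0.67). Lipid genes with a more negative change were Lpin1 (-2.22), Gpam (-1.36) and Apob (-1.94). The longer Cps1 locus differed by -2.28, Cyp7a1 by -2.29, Abcc2 by -1.84, Insr by -1.48, Cyp1a2 by -1.49 and Cyp3a11 by 1.79.

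Plasma protein genes with a more negative change were C3 (-1.76) and Lbp (-0.97), and the metalloreductase gene Steap4 of the acute phase list differed by -1.70. Chaperone genes with a more negative change were Hyou1 (-1.29), Hspa5 (-1.22) and Hsp90b1 (-1.01), whereas Erp29 differed by 0.61. Ndufb7 differed by 1.11, Sdhc by 0.69, Rpl18 by 1.01 and Psmb1 by 0.94. Further loci were Lamb3 (1.78), Rab30 (1.43), Pnldc1 (1.18), Rad51l1 (0.97), Gm4956 (-1.79) and Cyb5d1 (-1.50). All these differences are from control livers alone. In livers lacking JNK2 alone, Cidec, Apoa4, Gpnmb and Mmp12 also rose on high fat, by 2.64, 2.58, 2.28 and 2.26 as deposited. Other loci of the list passed there in both readings too. Among them were Gm10680 (2.56), Pnldc1 (1.71), Rad51l1 (1.51), Bdh1 (0.86), Acat1 (0.52) and the longer Cps1 locus (-1.47). In livers lacking JNK1 alone, Cidec, Apoa4, Gpnmb and Mmp12 were not called. Pnldc1 (1.345), Rad51l1 (2.17), Bdh1 (0.38) and the longer Cps1 locus (-0.99) passed there in both readings.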

How the results depend on the processing

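Of 6014 loci called in the Jnk1Jnk2 diet contrast as deposited, 2986 were called the same way with the length trend removed, where 4158 were called in all. Requiring a mean of at least 5 FPKM left 3898 calls. Leaving out 1 library gave 5063 (without high fat replicate 2) to 5901, and with the trend also removed 3331 to 3978 (3563 without chow replicate 1 or 2, 3435 without chow replicate 3 and 3566 without high fat replicate 3), and without high fat replicate 3 the split was 2665 higher to 2925 lower. The control contrast gave 1717 calls, 3067 with array weights and 1050 to 1619 with 1 library left out. Leaving out replicate 2 on high fat gave 1106, and leaving out replicate 2 or 3 on chow gave 1127 or 1050. The genotype difference gave 3689 calls, 2123 with the length trend removed, 1866 with length and GC trends removed, 2043 with a replicate block and the length trend removed, and 2831 to 3924 with 1 library left out. The replicate block alone gave 5986, 1633 and 3667 calls in the 3 contrasts and moved none by over 1.5 times; the labels share only a number. The cause of these shifts was not tested. For the Jnk1Jnk2 contrast 101 loci were checked 1 by 1, a set that lacks some of the genes named above and holds some not named. Of these, 94 stayed on the same side of the threshold under every alternative applied to them, and none reversed. Leaving out 1 library with the trend also removed was not among those alternatives. Most of the 101 had been picked as called in both readings, so staying called in those was fixed beforehand. Values under 1 FPKM limit Gpnmb and Mmp12 on chow, and depth is lowest in high fat replicate 3.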
